A study of Mus musculus with 7 samples.

Results

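The acinar cells examined here are the 2636 cells, 1542 of mouse 1 and 1094 of mouse 2, that the deposited cell annotation of 2 caerulein-treated mice places in a cluster named Acinar. They are part of 22177 annotated pancreatic cells of these mice and of 58473 cells in the whole series. The reference was 1770 cells named Acinar in 2 WT mice, 853 and 917 per mouse. The annotation holds 1 acinar cluster in either condition, so there are no acinar subclusters to compare. All 4 mice were wild-type C57BL/6 animals of 2 months, and every mouse gave 1 single-cell library of its pancreas. The caerulein mice were injected 7 times a day with 100 µg/kg on 2 days, a treatment used to model acute pancreatitis. The WT mice drank doxycycline at 1 mg/ml for 7 days, and the labels of the caerulein mice give no doxycycline, so caerulein and the absence of doxycycline cannot be told apart. Animals injected with buffer alone were not analysed here. Another 3 mice of the genotype i4F-B, also of 2 months, drank doxycycline at 1 mg/ml for 7 days. They carry the reprogramming factors OSKM, which doxycycline switches on throughout the body. These mice enter only where a fit of 7 mice is named and in the last section.

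Acinar cells make most of the protein of the pancreas, fold it in an extended rough endoplasmic reticulum (ER) and store digestive enzymes as inactive precursors in zymogen granules, which they release when cholecystokinin binds its receptor. Caerulein is an analogue of cholecystokinin, and at high doses it injures the gland. Acinar cells in an injured pancreas are known to lose secretory genes and to take up genes of duct cells, a change called acinar-to-ductal metaplasia. The supply of ER folding enzymes is controlled in part by the transcription factors ATF6 and XBP1, and a DNA element through which they act together with NF-Y is the ER stress response element (ERSE), a CCAAT box followed at a fixed distance by CCACG.

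In caerulein acinar cells 33 of 45 ER genes were called lower (below), and therefore the promoters of 5 of them with an ERSE are shown: Derl3 (degradation of misfolded ER proteins), Creld2 and Pdia6 (disulphide exchange), Syvn1 (the ubiquitin ligase of ER-associated degradation) and Hspa5 (the chaperone BiP). The sequences are from RefSeq (GRCm38.p6), run 5′ to 3′ along the gene from 250 bases before to 50 bases after its start, and carry in capitals each match, on either strand, to CCAAT and CCACG with 9 bases of any kind between them. They lie at chr10:75893148-75893447, chr15:88819396-88819695, chr12:17266339-17266638, chr19:6046326-6046625 and chr2:34771840-34772139, all on the plus strand.
Derl3: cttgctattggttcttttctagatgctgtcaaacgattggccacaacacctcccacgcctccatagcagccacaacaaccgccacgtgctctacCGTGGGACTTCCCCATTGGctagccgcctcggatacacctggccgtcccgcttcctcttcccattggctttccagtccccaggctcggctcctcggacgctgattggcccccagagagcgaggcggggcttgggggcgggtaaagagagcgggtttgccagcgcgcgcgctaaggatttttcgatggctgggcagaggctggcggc
Creld2: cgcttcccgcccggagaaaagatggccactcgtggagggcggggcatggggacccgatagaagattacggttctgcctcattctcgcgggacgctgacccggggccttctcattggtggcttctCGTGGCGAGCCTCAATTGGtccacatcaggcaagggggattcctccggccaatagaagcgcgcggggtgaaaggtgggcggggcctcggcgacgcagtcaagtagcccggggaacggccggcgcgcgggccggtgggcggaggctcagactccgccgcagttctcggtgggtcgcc
Pdia6: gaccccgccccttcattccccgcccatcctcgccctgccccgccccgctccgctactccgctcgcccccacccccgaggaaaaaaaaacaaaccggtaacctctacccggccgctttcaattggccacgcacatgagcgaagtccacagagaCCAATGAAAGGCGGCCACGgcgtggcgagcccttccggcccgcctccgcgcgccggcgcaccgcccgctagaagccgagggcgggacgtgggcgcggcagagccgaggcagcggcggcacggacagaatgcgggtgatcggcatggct
Syvn1: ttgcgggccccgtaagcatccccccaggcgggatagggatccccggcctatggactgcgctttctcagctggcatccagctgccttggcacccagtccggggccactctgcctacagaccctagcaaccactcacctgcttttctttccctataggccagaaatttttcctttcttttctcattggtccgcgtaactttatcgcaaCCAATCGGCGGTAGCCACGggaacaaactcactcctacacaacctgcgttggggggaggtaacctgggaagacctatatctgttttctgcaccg
Hspa5: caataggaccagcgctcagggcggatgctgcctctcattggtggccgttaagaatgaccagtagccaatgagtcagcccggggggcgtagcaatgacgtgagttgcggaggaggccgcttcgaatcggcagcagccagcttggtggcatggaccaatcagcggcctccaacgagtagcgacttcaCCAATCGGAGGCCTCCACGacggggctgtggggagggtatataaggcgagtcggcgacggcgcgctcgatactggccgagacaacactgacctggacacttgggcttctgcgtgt
Read in the direction of the motif, the matches were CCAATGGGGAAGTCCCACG in Derl3, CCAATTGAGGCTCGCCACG in Creld2, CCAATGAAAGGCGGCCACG in Pdia6, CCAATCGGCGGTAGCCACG in Syvn1 and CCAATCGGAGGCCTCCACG in Hspa5. In Derl3 and Creld2 the match lay on the strand opposite to the gene. The motif occurred in 39 of the 32851 RefSeq promoters of this length (0.119%) and in 9 of the 37 genes of the ER list (45 genes) that had an entry. The other 4 were Calr, Canx, Dnajc3 and Hsp90b1, of which Hsp90b1 held 2 matches. A match is a run of letters in this window and not a measured binding site.

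The label of the cluster was checked against the acinar markers Gp2, Pnliprp2 and Reg3b, of which Gp2 encodes the main zymogen granule membrane glycoprotein, Pnliprp2 a pancreatic lipase and Reg3b a secreted lectin. After each cell was thinned to 1000 UMIs (molecules counted once by their identifier) and shallower cells were left out, Gp2 was found in 56.9% and 45.9% of the caerulein acinar cells and Pnliprp2 in 78.8% and 77.1%. In macrophages of the same libraries, which should lack both genes, the shares were 0.752% and 0.592% for Gp2 and 1.46% and 1.44% for Pnliprp2. Reg3b was found in 94.6% and 96.9% of the caerulein acinar cells, but also in 15.3% and 14.2% of the macrophages. In WT acinar cells the shares were 96.7% and 92.8% for Gp2, 97.4% and 93.8% for Pnliprp2, and 72.4% and 13.4% for Reg3b. The name thus rests on genes that the cells still carried above the background of their libraries. The depth behind these shares was 1139 of 1542 and 652 of 1094 caerulein cells, and 152 of 853 and 209 of 917 WT cells. Only 10 of 24 genes of a longer list of acinar markers had values in the tables, and the rest were not analysed here. Of these 10 genes, 1 had a higher mean level after caerulein than in WT.

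More UMIs per cell were counted in caerulein acinar cells than in WT acinar cells. The counts leave out acinar genes that had no values, so they do not measure the RNA content of a cell. The median was 2214 and 1323 UMIs per cell in the caerulein mice, against 431 and 502 UMIs in the WT mice, and the median number of genes was 867 and 609 against 250 and 255. Both caerulein mice lay above both WT mice, at p = 0.33 for either measure (two-sided exact permutation test), which is the smallest p that 2 mice against 2 allow, so no such test can reach 0.05 here. Of the WT acinar cells 85.2% and 82.9% had under 500 genes, against 29.7% and 41.9% after caerulein. Over acinar cells with at least 500 genes the median was 3526 and 2355 UMIs after caerulein, against 1648 and 1811 UMIs in WT. Thinned to 1000 UMIs, the median was 519 and 552 genes against 466 and 437 in WT, and the log2 ratio of the group means went from 1.55 to 0.25. Acinar cells were 10.2% and 15.5% of the cells of the caerulein mice and 19.7% and 14.5% of the WT mice, with overlap (exact permutation test, p = 0.667). Outside the immune clusters these shares were 23.6% and 28.8% against 20.8% and 16.4%, the other order of the group means (p = 0.33 by the same exact test). The exact 95% intervals of the shares among all cells reached 9.71% to 10.7% and 14.7% to 16.4% after caerulein, and 18.5% to 20.9% and 13.6% to 15.4% in WT, and cover the error from counting cells only. The share of mitochondrial UMIs had medians of 0.112% and 0.147% against 0.973% and 0.415%.

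Transcripts of other cell types also moved in the summed acinar cells. All 12 macrophage markers were higher after caerulein, with a summed level of 3301 and 1802 CPM (UMIs of a gene per 1000000 UMIs) against 49.5 and 127 CPM in WT, with 0 of the 12 at 0 in either caerulein mouse. Of 7 neutrophil markers 5 were higher, summing to 222 and 87.6 CPM against 2.61 and 1.22 CPM, and 2 and 3 of them were at 0 in the caerulein mice. Ptprc, which marks immune cells, was found in 1.49% and 1.07% of the thinned caerulein acinar cells and in none of the thinned WT cells, whose count of 0 of 152 and 0 of 209 allows shares of up to 2.4% and 1.75% by exact 95% intervals. Lyz2, a macrophage gene, was found in 21.3% and 13% of caerulein acinar cells, 19.2% and 8.72% of ductal cells and 33.4% and 16.1% of endothelial cells of the same mice. Of 10 ductal markers 9 were higher, and the list summed to 2460 and 2987 CPM against 572 and 480 CPM, while all 7 endocrine markers with values were lower, at 6.79 and 33.9 CPM against 596 and 872 CPM. Stellate markers (6 of 8 higher) summed to 2100 and 2349 CPM against 1110 and 1066 CPM, and endothelial markers (0 of 7 higher) to 77.0 and 36.3 CPM against 241 and 269 CPM. B cell markers (2 of 5 higher) and T and NK cell markers (3 of 6 higher) reached at most 37.2 CPM, and 5 erythroid markers were at 0 in all. A doublet caller marked 9.34% and 8.50% of the caerulein acinar cells and 0.117% and 1.31% of the WT acinar cells, and it had not worked in WT mouse 1, where it marked 2 of 4327 cells. The 2 caerulein libraries shared 25 cell barcodes, of which 1 was an acinar cell in both. The part of these transcripts in the results below was not tested, except where values without doublets or over cells with under 1% immune marker UMIs are given.

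To ask which genes differed in acinar cells between the conditions, UMIs were summed over the acinar cells of each mouse, 5893070 and 2421364 UMIs after caerulein and 767407 and 817448 UMIs in WT, and tested with edgeR's quasi-likelihood test with Benjamini-Hochberg adjustment at 0.05. In the fit of all 7 mice, 0 of 11134 genes were called higher (0%) and 4 lower (0.0359%), beside 1235 higher and 1207 lower genes at an unadjusted p under 0.05. Among the 4 were Aqp8, a water channel gene, Ggh and Kcna1 (adjusted p = 0.0447 each). DESeq2 on the same sums called 319 higher and 588 lower. The i4F mice differed among themselves in this fit: 2071 of 2130 acinar cells of i4F mouse 3 carry the deposited name Acinar_1, while 583 of 594 and 746 of 807 cells of the other i4F mice are named Acinar_2. Without i4F mouse 3 the same test called 929 higher and 1222 lower, among them 1888 of the 2030 genes that the next fit called. The other i4F mice were not left out, so whether this depends on i4F mouse 3 in particular was not tested. The fit of the 4 WT and caerulein mice alone tested 8511 genes and called 850 higher (9.99%) and 1180 lower (13.9%). All of these 2030 genes had the same direction in the fit of 7 mice, 1655 of them at an unadjusted p under 0.05. Results below are from the fit of the 4 mice, a choice made after both fits were seen, and "rose" and "fell" refer to its calls. Removal of called doublets gave 784 higher and 1165 lower genes, and cells with under 1% immune marker UMIs gave 770 and 1168. Log2 CPM correlated at r = 0.884 across genes between the WT mice and at 0.973 between the caerulein mice, as a description. Leaving out caerulein mouse 1 lowered its counts to 349 and 701, and leaving out caerulein mouse 2 to 540 and 762. The median log2 fold change over all genes was 0.05, and 0.68 with plain library totals in place of TMM (trimmed mean of M-values) factors, a shift of 0.63. With plain totals the calls were 2742 higher and 678 lower, 80.2% higher in place of 41.9%.

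**Figure D1:**
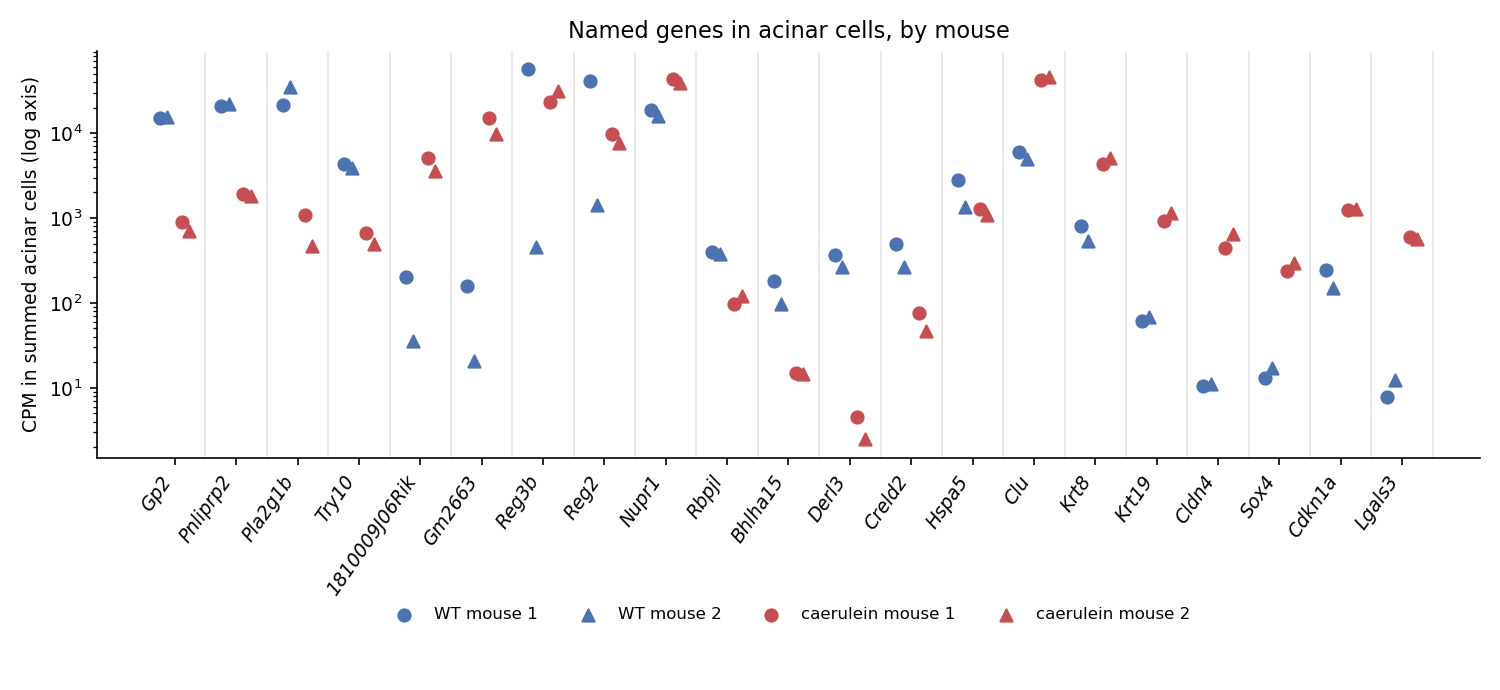
CPM of 21 genes in the summed acinar cells of each mouse (vertical log axis), with WT mice in blue, caerulein mice in red, circles for mouse 1 and triangles for mouse 2. The groups are apart for Gp2, Derl3, Krt19 and most other genes shown, while WT mice 1 and 2 lie on either side of both caerulein mice for Reg3b and Reg2.

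Most digestive enzyme genes tested fell. Of 37 enzyme genes in the list 16 had values, 14 were tested, 9 fell and 1 rose, with a median log2 fold change of -3.94 against 0.05 over all genes. Among all genes tested 13.9% fell and 9.99% rose. Gp2 (GRCm38 chromosome 7, 119442537 to 119459285) and Pnliprp2 (chromosome 19, 58759719 to 58777534) are markers of the cluster. Gp2 had 15048 and 15557 CPM in the WT mice and 899 and 696 CPM in the caerulein mice, and the fit gave a log2 fold change of -4.89 ± 0.37 SE, adjusted p = 0.000309. Pnliprp2 had 21149 and 21984 CPM in the WT mice and 1933 and 1797 CPM in the caerulein mice, with a log2 fold change of -4.17 ± 0.35 SE, adjusted p = 0.000434. For both genes the mice of a group lay close together and the groups were far apart. Pla2g1b had 21719 and 34829 CPM in the WT mice and 1074 and 470 CPM in the caerulein mice. This gene encodes pancreatic phospholipase A2 (log2 fold change of -5.81 ± 0.62 SE, adjusted p = 0.0011). Ctrc had 2230 and 2783 CPM in the WT mice and 73 and 62.8 CPM in the caerulein mice. It encodes chymotrypsin C, which controls the fate of trypsinogen (log2 fold change of -5.84 ± 0.31 SE, adjusted p = 0.000113). Amy2a5, an amylase gene, and Amy2b, which the annotation used here lists as an unprocessed pseudogene, had log2 fold changes of -6.30 and -6.14 (adjusted p = 0.0011 and 0.000156), but near-identical amylase copies can share UMIs. Together the 16 enzyme genes, with the 1 that rose among them, took 6.20% and 7.65% of the acinar UMIs in WT and 1.11% and 0.762% after caerulein. Enzyme genes without values are missing from the totals too, so these are not the enzyme shares of acinar RNA. The same holds for all acinar CPM values and UMI shares.

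The gene of the list that rose was 1810009J06Rik, a trypsin-like gene, and Gm2663, which neighbours it on chromosome 6 and is no member, rose too. 1810009J06Rik had 202 and 35.5 CPM in the WT mice and 5085 and 3559 CPM in the caerulein mice (GRCm38 chromosome 6, 40964754 to 40968435; log2 fold change of 4.57 ± 0.74 SE, adjusted p = 0.00554). Gm2663 had 156 and 20.8 CPM in the WT mice and 15020 and 9896 CPM in the caerulein mice (chromosome 6, 40995830 to 40999479; log2 fold change of 6.53 ± 0.90 SE, adjusted p = 0.00306). Try10, a trypsinogen gene further along the same chromosome (chromosome 6, 41354105 to 41357914), fell: 4295 and 3851 CPM in WT and 662 and 489 CPM after caerulein (log2 fold change of -3.45 ± 0.30 SE, adjusted p = 0.000548). It was chosen after its values were seen. For both rising genes the caerulein mice lay far above the WT mice, of which mouse 1 was the higher. In the fit of 7 mice without 1 mouse, the log2 fold change ranged from 3.90 to 6.39 for 1810009J06Rik and from 5.80 to 8.69 for Gm2663. Thinned to 1000 UMIs, 1810009J06Rik was found in 82.2% and 70.1% of caerulein acinar cells, 4.61% and 0.957% of WT acinar cells and 3.33% and 1.94% of caerulein macrophages. Of the caerulein cells with 1810009J06Rik 81.6% in either mouse also held Pnliprp2. The share was 65.5% and 66.7% of the cells without it. Trypsinogen genes are similar in sequence, and how UMIs were split between them is not given in the sources used here, so these values are uncertain.

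Granule, membrane and inhibitor genes followed the enzymes. Of 32 genes 28 had values, 25 were tested and 17 fell, and none rose (median -2.10), while with plain totals 15 fell and 3 rose (median -1.45). Among all genes tested 13.9% fell and 9.99% rose. Serpini2 had 3404 and 3973 CPM in the WT mice and 17.3 and 12 CPM in the caerulein mice. It encodes the serine protease inhibitor pancpin and had the largest fall of the list (log2 fold change of -8.57 ± 0.39 SE, adjusted p = 0.000113). Pdia2 had 10446 and 15095 CPM in the WT mice and 163 and 106 CPM in the caerulein mice. Pdia2 is the disulphide isomerase of the pancreas (log2 fold change of -7.19 ± 0.48 SE, adjusted p = 0.000215). Slc39a5 had 764 and 843 CPM in the WT mice and 20.9 and 14.9 CPM in the caerulein mice. It encodes a zinc transporter (log2 fold change of -6.09 ± 0.31 SE, adjusted p = 0.000113). Aqp8 had 44.3 and 41.6 CPM in the WT mice and 0.848 and 0.413 CPM in the caerulein mice, and this was the only member called in the fit of all 7 mice (log2 fold change of -6.42 ± 0.41 SE, adjusted p = 0.000199). Cckar, the receptor for cholecystokinin and thus for caerulein, had 431 and 311 CPM in WT and 200 and 278 CPM after caerulein (log2 fold change of -1.28 ± 0.24 SE, adjusted p = 0.00999), and it was chosen after its values were seen. Nupr1, a stress-induced chromatin protein, had 18780 and 16133 CPM in WT and 43966 and 39372 CPM after caerulein and did not pass the test (log2 fold change of 0.62 ± 0.35 SE, adjusted p = 0.232), and it too was chosen after its values were seen.

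Reg genes encode secreted lectins that acinar cells make in large amounts when the gland is injured. The 2 WT mice already differed by a large factor in Reg3b, Reg2, Reg3a and Reg3g. Reg3b had 56587 and 458 CPM in the WT mice and 23454 and 31158 CPM in the caerulein mice (chromosome 6, 78370657 to 78373466; log2 fold change of -0.69 ± 1.46 SE, adjusted p = 0.76). WT mouse 1 was above both caerulein mice and WT mouse 2 far below them. Reg2, Reg3a and Reg3g had the same split between the WT mice, at 41400 and 1414 CPM, 5827 and 52.6 CPM, and 2495 and 100 CPM, and none passed the test (adjusted p = 0.275, 0.127 and 0.691). Reg3d was the 1 of 5 tested genes that fell: 1860 and 909 CPM in WT and 99.6 and 89.2 CPM after caerulein (log2 fold change of -4.50 ± 0.39 SE, adjusted p = 0.000513). These calls depended on the WT library: without WT mouse 1, 4 rose and 1 fell, and without WT mouse 2, 0 rose and 4 fell. In either fit 1 WT mouse remained and was assumed to vary like the caerulein mice, which lay close together for these genes while the WT mice did not, so these counts show the dependence and support no call. Without WT mouse 1 the log2 fold change of Reg3b in the fit of 7 mice turned from -0.65 to 5.33. WT mouse 1 and the i4F mice bear library names of one series and the other 3 mice names of another.

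Acinar transcription factors fell in part. Of 17 genes 16 were tested, 7 fell and none rose (median -0.75, and -0.12 with plain library totals), beside 13.9% lower and 9.99% higher over all genes. Rbpjl had 397 and 373 CPM in the WT mice and 98.3 and 119 CPM in the caerulein mice. Rbpjl is the acinar partner of PTF1A in the complex that drives enzyme genes (log2 fold change of -2.47 ± 0.20 SE, adjusted p = 0.000395). Bhlha15 had 184 and 96.6 CPM in the WT mice and 15.1 and 14.5 CPM in the caerulein mice. Bhlha15 encodes MIST1, which organises the secretory apparatus (log2 fold change of -3.86 ± 0.34 SE, adjusted p = 0.000548). Nr0b2 had 70.4 and 74.6 CPM in the WT mice and 9.33 and 9.91 CPM in the caerulein mice. It encodes the nuclear receptor SHP (log2 fold change of -3.54 ± 0.23 SE, adjusted p = 0.000215). Klf15 (-4.32), Creb3l1 (-1.62), Foxa3 (-1.50) and Gata4 (-1.39) were the other log2 fold changes that passed (adjusted p = 0.00303, 0.012, 0.00901 and 0.0362). With plain totals 5 genes of the list fell. Ptf1a itself had 27.4 and 62.4 CPM in WT and 72.1 and 27.7 CPM after caerulein, with overlap (log2 fold change of -0.43 ± 0.56 SE, adjusted p = 0.601). Nr5a2, a nuclear receptor of acinar identity, had 18.2 and 25.7 CPM in WT and 28 and 34.7 CPM after caerulein (log2 fold change of -0.14 ± 0.30 SE, adjusted p = 0.756). Xbp1, the ER stress factor named above, had 283 and 571 CPM in WT and 841 and 571 CPM after caerulein (log2 fold change of 0.10 ± 0.38 SE, adjusted p = 0.881). Gata6, Foxa2, Mecom, Tcf3 and Rbpj did not pass either, with log2 fold changes from -0.68 to 1.09. Their levels were 2.61 to 19.3 CPM in every mouse, which leaves small changes undetectable at this depth, and the direction of Ptf1a, Nr5a2 and Gata6 turned with plain totals in the fit of 7 mice.

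ER folding and stress genes fell widely. All 45 were tested, 33 fell and none rose, beside 13.9% lower and 9.99% higher over all genes. The median log2 fold change was -1.72 against 0.05 over all genes, and 25 fell and 2 rose with plain library totals. The share of this list that fell, 33 of 45, was above that of granule genes (17 of 25) and enzymes (9 of 14), but with plain totals it was below both (25 of 45 against 15 of 25 and 9 of 14). Derl3 had 365 and 267 CPM in the WT mice and 4.58 and 2.48 CPM in the caerulein mice (log2 fold change of -6.97 ± 0.37 SE, adjusted p = 0.000113). Sdf2l1 had 792 and 513 CPM in the WT mice and 103 and 69.4 CPM in the caerulein mice. Its product is a cofactor of BiP (log2 fold change of -3.53 ± 0.34 SE, adjusted p = 0.000731). P4hb had 1711 and 1819 CPM in the WT mice and 243 and 262 CPM in the caerulein mice. It encodes protein disulphide isomerase (log2 fold change of -3.45 ± 0.23 SE, adjusted p = 0.000215). Hyou1 had 117 and 61.2 CPM in the WT mice and 13.1 and 13.6 CPM in the caerulein mice. This gene encodes an ER chaperone of the HSP70 class (log2 fold change of -3.36 ± 0.33 SE, adjusted p = 0.000766). Of the genes whose promoters are printed above, Creld2 had a log2 fold change of -3.24, Syvn1 of -3.02, Pdia6 of -2.08 and Hspa5 of -1.44 (adjusted p = 0.00195, 0.0161, 0.00114 and 0.0314). Syvn1 had 80.8 and 15.9 CPM in the WT mice and 7.64 and 11.2 CPM in the caerulein mice, and Hspa5 had 2807 and 1333 CPM in the WT mice and 1282 and 1080 CPM in the caerulein mice. WT mouse 1 was the higher WT mouse for both, and in the fit of 7 mice their log2 fold changes were -1.34 and -0.72 without it. All 9 genes of the list with an ERSE were called lower, and so were 24 of the 36 without a match or without an entry. These calls rest on TMM factors. By plain mean CPM with 1 CPM added, the log2 ratios of the 9 ranged from -0.38 (Canx) to -6.13 (Derl3). For Calr the groups overlapped, at 715 and 367 CPM in WT and 343 and 433 CPM after caerulein. Over all genes, 10 of 884 genes that fell and had a promoter entry held the motif (1.13%), and 0 of 661 that rose. The 10 include the 9 ER genes, and 0 of 30 enzyme genes with an entry held the motif. Not all stress genes of the list fell. Atf4, a transcription factor made when stress slows translation, had 313 and 209 CPM in WT and 300 and 332 CPM after caerulein (log2 fold change of -0.36 ± 0.24 SE, adjusted p = 0.302). In the fit of 7 mice its direction turned with plain totals (0.28) and without WT mouse 1 (0.036). Ddit3, which encodes CHOP, had 70.4 and 75.8 CPM in WT and 147 and 154 CPM after caerulein (log2 fold change of 0.40 ± 0.20 SE, adjusted p = 0.194). Asns, a target of ATF4, fell, with 641 and 591 CPM in WT and 387 and 405 CPM after caerulein (log2 fold change of -1.28 ± 0.20 SE, adjusted p = 0.00459). Ddit3, Atf4 and Asns were chosen after their values were seen, as were Hspa5, Creld2, Pdia6 and Syvn1.

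**Figure D2:**
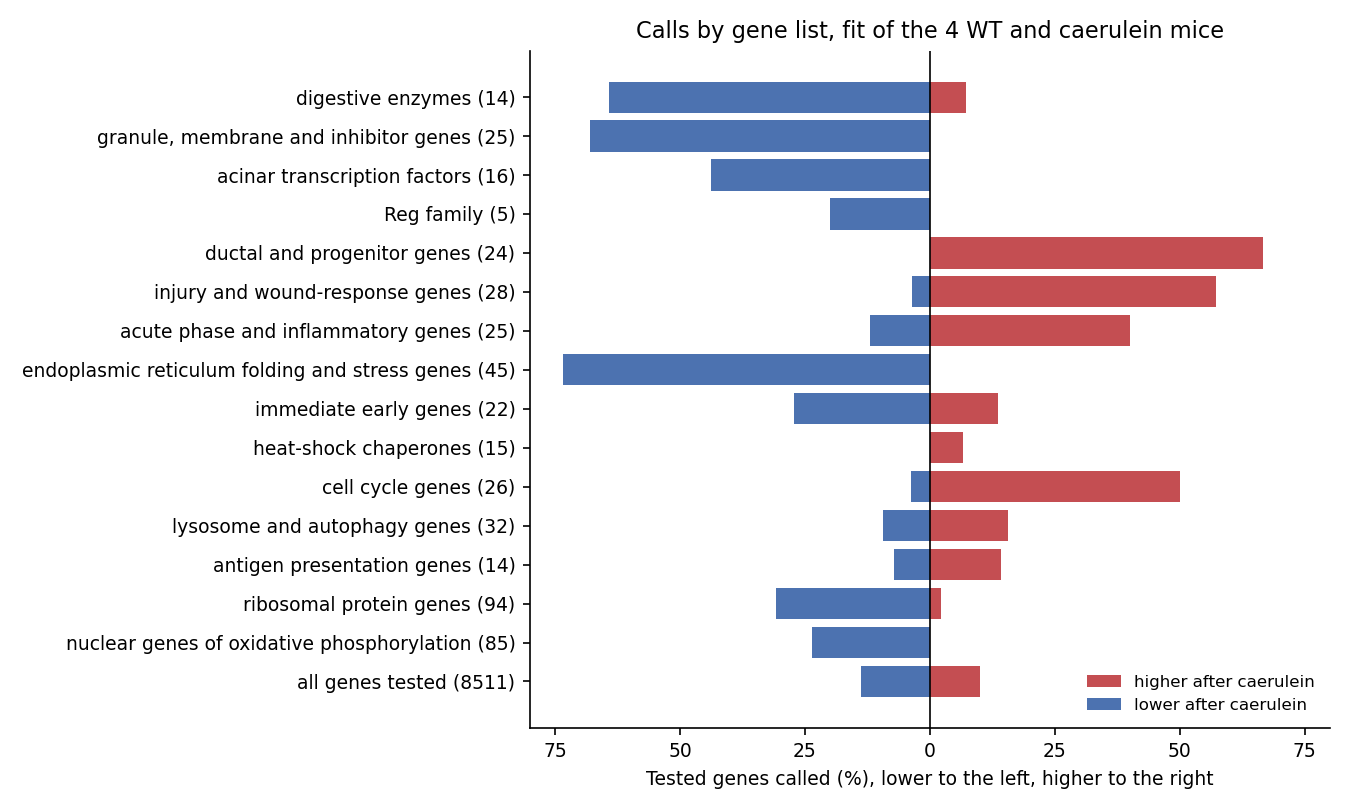
Percent of tested genes called in the fit of the 4 WT and caerulein mice, by gene list (number tested in brackets), with genes lower after caerulein to the left in blue and genes higher to the right in red. The lowest row gives all 8511 genes, of which 13.9% were lower and 9.99% higher. ER, granule and enzyme genes extend to the left, and ductal, injury and cell cycle genes to the right.

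Genes of ducts and progenitors rose in part. Of 33 genes 24 were tested, 16 rose and none fell, with a median of 2.10, beside 9.99% higher and 13.9% lower over all genes. Members near 0 in WT could enter the test only through the caerulein mice, so the share that rose is partly set by the filter on low counts. Without the filter 17 of 32 rose and none fell. Clu had 6063 and 4893 CPM in the WT mice and 42139 and 45493 CPM in the caerulein mice. Clusterin is a secreted chaperone of injured epithelia (log2 fold change of 2.36 ± 0.34 SE, adjusted p = 0.00362). Krt19 had 61.2 and 68.5 CPM in the WT mice and 921 and 1135 CPM in the caerulein mice. Krt19 is the keratin most used to mark ducts (log2 fold change of 3.34 ± 0.23 SE, adjusted p = 0.000221). The keratins Krt8 and Krt18, which acinar cells also express, rose by less, with log2 fold changes of 2.18 and 1.93 (adjusted p = 0.00236 and 0.00563). Cldn4 had 10.4 and 11 CPM in the WT mice and 448 and 644 CPM in the caerulein mice. It encodes a tight junction claudin (log2 fold change of 5.01 ± 0.29 SE, adjusted p = 0.000141). Sox4 had 13 and 17.1 CPM in the WT mice and 241 and 296 CPM in the caerulein mice. It encodes a transcription factor of progenitors (log2 fold change of 3.50 ± 0.26 SE, adjusted p = 0.000309). The hyaluronan receptor gene Cd44 had 2 and 1 UMIs in WT and 327 and 176 UMIs after caerulein, a ratio of 32 (95% counting interval 10.9 to 155; adjusted p = 0.000859). In CPM this was 55.5 and 72.7 after caerulein, beside 288 and 284 CPM in macrophages of these mice. Krt7 had 3.91 and 2.45 CPM in WT and 61.9 and 107 CPM after caerulein (log2 fold change of 4.06 ± 0.47 SE, adjusted p = 0.0015). Krt20 had 0 UMIs in both WT mice and 42 and 21 UMIs after caerulein, which is at least 4.0-fold higher against a floor of 3 UMIs over the WT group (adjusted p = 0.0285). Such bounds and all ratios of UMIs use plain library totals, while the adjusted p values rest on TMM factors. A 0 in both mice of a condition may also stand for a gene not listed for that condition. Sox9, the duct transcription factor, had 18.2 and 11 CPM in WT and 18.8 and 23.1 CPM after caerulein and did not pass (log2 fold change of -0.12 ± 0.36 SE, adjusted p = 0.828). Clu, Krt8, Krt18, Krt19, Sox4 and Sox9 were chosen after their values were seen.

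Beside ductal cells, the caerulein acinar cells reached the ductal level for some of these genes and not for others. In cells thinned to 1000 UMIs, Krt19 was found in 50.5% and 63.8% of caerulein acinar cells, 52.7% and 62.8% of caerulein ductal cells, 2.63% and 3.35% of WT acinar cells and 0.476% and 0.549% of caerulein macrophages. Krt7 was found in 4.13% and 5.21% of caerulein acinar cells but in 43.5% and 43.1% of ductal cells, and Sox9 in 0.966% and 1.53% against 18.9% and 20.6%. Spp1 had 31.7% and 35.4% against 99.4% and 99.5%, beside 77.0% and 83.7% of macrophages and 18.6% and 16.9% of endothelial cells. Krt19 was found about as often in caerulein acinar cells with Pnliprp2 (50.4% and 63.6%) as in those without it (50.8% and 64.4%), so both transcripts were found in the same cells.

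Per cell, both gene groups were described over the whole cluster. Clu and the keratins were chosen after their rise in these mice was seen, so values of their sum are a description and no test. The median cell had 1.91% and 1.35% of its UMIs on 20 secretory genes after caerulein, against 10.2% and 10.8% in WT, and 5.48% and 6.04% on Clu, Krt8, Krt18 and Krt19, against 0.556% and 0.462%. At least 2% of the UMIs lay on these 4 genes in 92.5% and 94.6% of the caerulein cells and in 3.87% and 2.73% of the WT cells. At least 5% lay on the secretory genes in 12.2% and 6.49% of the caerulein cells and in 91.7% and 91.9% of the WT cells. Of the 188 and 71 caerulein cells above that bound, 166 and 66 were also above the bound for Clu and keratins. Thinned to the same depth, the median cell held 17 and 11 secretory UMIs per 1000 after caerulein and 96 and 111 in WT. The 20 secretory genes include 1810009J06Rik, which rose to 5085 and 3559 CPM after caerulein. The secretory values are thus not those of falling genes alone, and the part of this gene in them was not tested. Both caerulein mice lay on the same side of both WT mice in each of these medians.

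**Figure D3:**
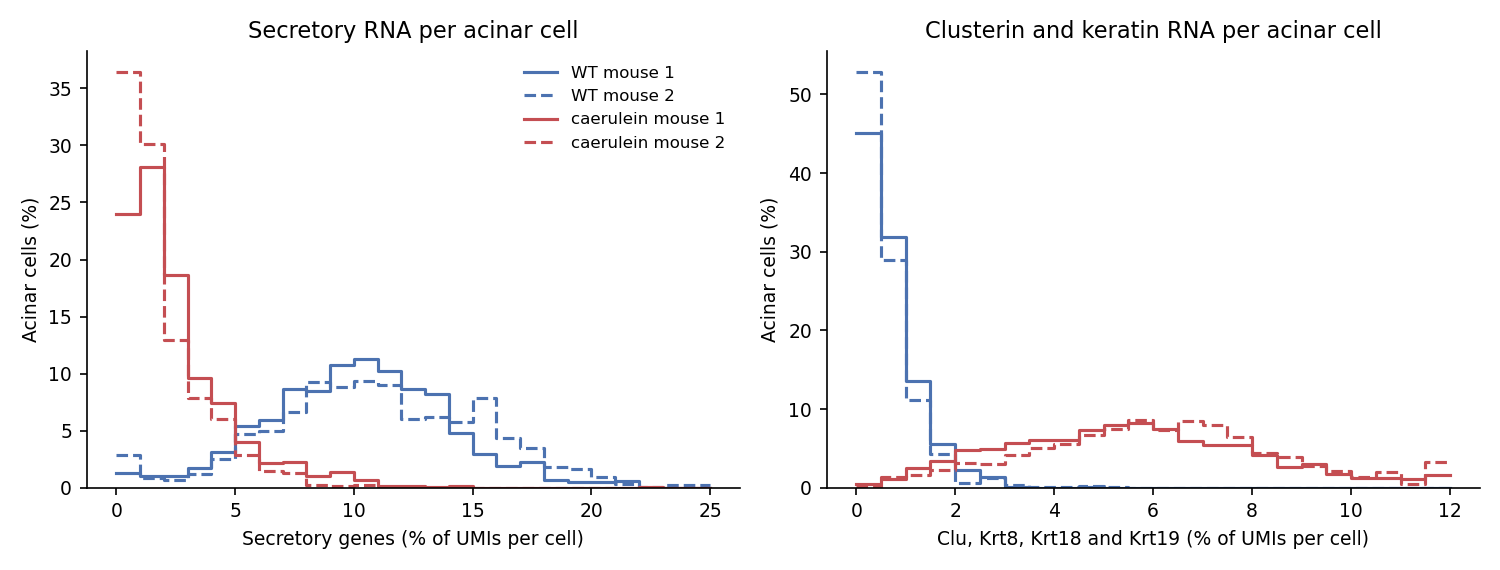
Distribution over acinar cells of the percent of a cell's UMIs on 20 secretory genes (left, bins of 1%) and on Clu, Krt8, Krt18 and Krt19 (right, bins of 0.5%), as the percent of the acinar cells of each mouse, with solid lines for mouse 1 and dashed lines for mouse 2. The last bin also holds all higher values. WT cells in blue centre near 10% secretory UMIs and caerulein cells in red below 3%, and the order is reversed on the right.

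Injury and wound-response genes rose in part. Of 33 genes 28 were tested, 16 rose and 1 fell (median 1.21), and with plain totals 24 rose and 1 fell (median 1.84). Over all genes 9.99% rose and 13.9% fell. Without the filter, which genes near 0 in WT pass only through the caerulein mice, 20 of 31 rose and 2 fell. Lgals3 had 7.82 and 12.2 CPM in the WT mice and 592 and 562 CPM in the caerulein mice. It encodes galectin-3 (log2 fold change of 5.20 ± 0.30 SE, adjusted p = 0.000141). Timp1 had 11.7 and 8.56 CPM in the WT mice and 357 and 436 CPM in the caerulein mice. It encodes an inhibitor of matrix proteases (log2 fold change of 4.64 ± 0.27 SE, adjusted p = 0.000147). Tmsb10, a thymosin that binds actin, had a log2 fold change of 3.72 (adjusted p = 0.00124). Mmp7, a protease of injured epithelia, had 0 UMIs in WT and 68 and 69 UMIs after caerulein, at least 8.70-fold higher (adjusted p = 0.0379). Tm4sf1 was the gene that fell, at 67.8 and 50.2 CPM in WT and 20.4 and 26.4 CPM after caerulein (log2 fold change of -1.99 ± 0.25 SE, adjusted p = 0.00211). Cdkn1a, which encodes the cell cycle inhibitor p21, had 245 and 152 CPM in WT and 1230 and 1272 CPM after caerulein (log2 fold change of 2.02 ± 0.27 SE, adjusted p = 0.00264) and was chosen after its values were seen. Lgals3 is also a macrophage gene, at 3516 and 4332 CPM in the macrophages of the caerulein mice, while Timp1 was at 176 and 101 CPM there and at 4832 and 4757 CPM in stellate cells, whose markers also summed higher in the acinar cells after caerulein. Over cells with at least 500 genes, as without caerulein mouse 1, 11 injury genes rose and 2 fell, and 10 rose and 2 fell without the cells of the highest doublet scores.

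Among acute phase and inflammatory genes 10 of 25 rose and 3 fell (median 1.36), beside 9.99% higher and 13.9% lower over all genes, so that the lower calls were near the share of all genes. Cxcl2, a neutrophil attractant, had 6.52 and 53.8 CPM in WT and 1314 and 468 CPM after caerulein (log2 fold change of 4.26 ± 0.85 SE, adjusted p = 0.0129). In the fit of 7 mice without 1 mouse its log2 fold change ranged from 3.30 to 6.60. Ccl7, a monocyte attractant, had 7.82 and 26.9 CPM in WT and 254 and 157 CPM after caerulein (log2 fold change of 2.93 ± 0.52 SE, adjusted p = 0.00784). Macrophages of the caerulein mice held both at a higher level, 14918 and 9293 CPM for Cxcl2 and 2366 and 1246 CPM for Ccl7. Saa3 and Tnfaip3 had 1 and 2 UMIs in WT in all and 386 and 58, and 157 and 63, UMIs after caerulein, ratios of 84.6 (95% counting interval 15.1 to 3350) and 21 (5.74 to 174; adjusted p = 0.0179 and 0.0111). Itih4 (-5.80), Socs3 (-1.67) and Sod2 (-0.97) fell on the log2 scale (adjusted p = 0.000215, 0.0275 and 0.0167). With plain library totals 16 rose and 1 fell, and over cells with under 1% immune marker UMIs 9 rose and 3 fell. Without the filter, which genes near 0 in WT pass only through the caerulein mice, 16 of 29 rose and 3 fell. After removal of called doublets 4 of 19 rose and 3 fell, with a median of 0.53.

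Cell cycle genes gave more higher than lower calls, beside 9.99% higher and 13.9% lower over all genes. Of 38 genes 26 were tested, 13 rose and 1 fell (median 1.96), but only 4 rose over cells with at least 500 genes and 4 without caerulein mouse 2, 8 without WT mouse 2, and 6 of 16 tested without called doublets. Genes near 0 in WT could enter the test only through the caerulein mice, so the share of tested genes that rose is partly set by the filter on low counts, and without the filter 19 of 38 rose and 2 fell. The 13 include the inhibitor Cdkn1a, given above, while the other risers named here had at most 3 UMIs in WT in all. Top2a, a topoisomerase of dividing cells, had 0 and 1 UMIs in WT and 82 and 41 after caerulein, a ratio of 23.4 (95% counting interval 4.13 to 933; adjusted p = 0.0164). Birc5, which encodes survivin, had 1 and 2 against 95 and 65 UMIs, a ratio of 10.2 (3.42 to 49.8; adjusted p = 0.0218). Cdk1 rose from 1 UMI in each WT mouse to 75 and 51 UMIs, a ratio of 12 (3.26 to 100; adjusted p = 0.0248). Tk1 went from 0 UMIs to 61 and 39, at least 6.35-fold (adjusted p = 0.0204). Ccnd3 fell (log2 fold change of -1.05 ± 0.24 SE, adjusted p = 0.0212). Mki67, the usual proliferation marker, had 0 and 2 UMIs in WT and 59 and 40 after caerulein, a ratio of 9.44 (2.54 to 79) that did not pass (adjusted p = 0.0701). In thinned cells it was found in 0.966% and 0.92% of caerulein acinar cells against 7.26% and 5.5% of ductal cells.

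Immediate early genes, which tissue dissociation is known to induce, gave 3 higher and 6 lower calls among 22 (median -0.22). With plain library totals 7 were higher and 2 lower, and the median was 0.42. Over all genes 9.99% were called higher and 13.9% lower, so that the higher calls were near the share of all genes. Fos had 1341 and 1483 CPM in WT and 630 and 702 CPM after caerulein (log2 fold change of -1.73 ± 0.22 SE, adjusted p = 0.00205). Ier2, Zfp36 and Fosb fell with it, with log2 fold changes of -1.25, -1.74 and -1.11 (adjusted p = 0.0143, 0.00885 and 0.0159). Fosl1 (1 UMI in WT in all, 92 and 23 after caerulein, ratio 21.9, 95% counting interval 3.86 to 873), Fosl2 (1.47) and Ier5 (1.55) rose (adjusted p = 0.0439, 0.0381 and 0.0364). Without caerulein mouse 1, 0 rose and 2 fell. The 3 higher calls were lost with called doublets removed, at matched depth and with DESeq2, and 1 was left over cells with under 1% immune marker UMIs, while 10 genes fell at matched depth. Of 15 heat-shock chaperones 1 rose, near the 9.99% of all genes, and none fell. This gene was Hsp90ab1, at 1454 and 1518 CPM in WT and 7077 and 7402 CPM after caerulein (log2 fold change of 1.64 ± 0.25 SE, adjusted p = 0.00438). With plain totals 7 rose, without the filter 5 and without WT mouse 1 4.

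Among lysosome and autophagy genes 5 of 32 rose and 3 fell (median 0.02), beside 9.99% higher and 13.9% lower over all genes. With called doublets removed 3 rose and 4 fell, the same numbers as over cells with under 1% immune marker UMIs. With plain totals 12 rose and 0 fell, and without caerulein mouse 1 or 2 the numbers were 3 and 1 or 4 and 0. Ctsb, the cathepsin that can activate trypsinogen, had 281 and 280 CPM in WT and 926 and 765 CPM after caerulein (log2 fold change of 0.96 ± 0.22 SE, adjusted p = 0.0228). Ctsh and Lgmn had log2 fold changes of 2.28 and 4.05 (adjusted p = 0.00194 and 0.000377). Ctss had 2 UMIs in WT in all and 973 and 182 after caerulein, with 2281 and 2025 CPM in macrophages. Gabarapl2, Gabarap and the proton pump gene Atp6v0d1 fell (-1.16, -1.03 and -0.86 on the log2 scale; adjusted p = 0.00871, 0.014 and 0.024). Antigen presentation genes had 2 of 14 higher, Tapbp and Psmb8 (1.12 and 0.92; adjusted p = 0.0136 and 0.0336). The immunoproteasome subunit Psmb10 fell, at 1170 and 1669 CPM in WT and 280 and 266 CPM after caerulein (log2 fold change of -3.02 ± 0.27 SE, adjusted p = 0.000617). Over all genes 9.99% rose and 13.9% fell, and of the antigen presentation genes 9 of 14 rose with plain totals, and 0 without either caerulein mouse. Ribosomal protein genes fell in 29 of 94 cases, Rpl10, Rpl5, Rps6 and Rps7 by the most (-1.83, -1.81, -1.75 and -1.50; adjusted p = 0.0048, 0.00315, 0.00662 and 0.00773). Rps4l, a copy of Rps4x, and Rps19bp1, which encodes a partner of a ribosomal protein, rose (0.83 and 0.79; adjusted p = 0.0367 and 0.0372). Nuclear genes of oxidative phosphorylation fell in 20 of 85 cases, led by Atp5g1, Ndufv3, Ndufb11 and Ndufb9 (-1.85, -1.61, -1.51 and -1.49; adjusted p = 0.00247, 0.00923, 0.00383 and 0.00311). These last lists depend on the scaling: with plain totals 6 ribosomal genes rose and 7 fell, and 10 oxidative phosphorylation genes rose and 7 fell with the median at 0.10 in place of -0.53. Leaving out caerulein mouse 1 or 2 left 10 or 6 lower ribosomal genes, and 7 lower oxidative phosphorylation genes in either case.

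Apart from the lists, the genes with the largest changes and at least 50 CPM in one group were named by size. Those near 0 in one group passed the filter on low counts only through the other group. Sprr1a, a cornified envelope gene, had 1 UMI in WT in all and 1114 and 355 UMIs after caerulein, or 189 and 147 CPM, a ratio of 280 (95% counting interval 50.2 to 11067; adjusted p = 0.000377). The uncharacterised gene 2200002D01Rik had 1 against 823 and 376 UMIs, a ratio of 229 (40.9 to 9035; adjusted p = 0.000266). Serpinb6b rose from 4 and 0 UMIs to 1350 and 791 (log2 fold change of 6.11 ± 0.61 SE, adjusted p = 0.000824). In the fit of 7 mice without 1 mouse its log2 fold change ranged from 5.18 to 12.6. Ltb, which encodes lymphotoxin beta, had 1 against 275 and 142 UMIs, a ratio of 79.5 (14.2 to 3147; adjusted p = 0.00137), and lay at 9.73 and 4.26 CPM in macrophages of the same mice. S100a8, S100a9 and Trem2, which myeloid cells express, were also among them, with 1 UMI each in WT in all and 476 and 59, 747 and 146, and 535 and 123 UMIs after caerulein (adjusted p = 0.0218, 0.00352 and 0.00313), and ratios of 102, 170 and 125. Macrophages held them at 241 and 157, 345 and 254, and 1125 and 1215 CPM, above the acinar sums in each case. Among the falls, Tmed11, an ER to Golgi cargo gene, had 976 and 694 CPM in WT and 2.72 and 2.06 CPM after caerulein (log2 fold change of -8.98 ± 0.36 SE, adjusted p = 0.000113). The genes 1810018F18Rik, Hamp2, Slc38a5 and Galnt6os had log2 fold changes of -8.53, -7.64, -7.25 and -7.05 (adjusted p = 0.000113, 0.000145, 0.000548 and 0.000122). Kcna1 and Chga, an endocrine gene, had 22 and 60 and 35 and 67 UMIs in WT and 0 in both caerulein mice, at least 143-fold and 178-fold lower (adjusted p = 0.00115 and 0.000417). Ggh, which encodes a folate hydrolase, was named as a call of the fit of 7 mice and not by size. It had 1396 and 1222 CPM in WT and 179 and 138 CPM after caerulein (log2 fold change of -3.67 ± 0.27 SE, adjusted p = 0.000289).

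Whether the response was particular to acinar cells was asked by a test of the difference between the acinar and the ductal response, over summed acinar and ductal cells of the same 4 mice with the mouse as a block (1374 WT and 572 caerulein ductal cells). Of 12041 genes, 1396 changed more upward in acinar than in ductal cells (11.6%) and 1480 more downward (12.3%), with a median difference of 0.22 on the log2 scale. Without caerulein mouse 1 the counts were 406 and 665, and without caerulein mouse 2 they were 889 and 1044. Plain library totals gave 3719 and 705, 84.1% of the calls upward in place of 48.5%, and moved the median by 0.68. A replicate block in place of the mouse block left 85 and 187. Of the ER genes, 35 of 45 changed more downward in acinar cells and 4 more upward. Of these genes 21 had a lower mean CPM after caerulein in acinar cells and a higher one in ductal cells. Fkbp11, an ER proline isomerase counted here with the granule genes, had 2262 and 3085 CPM in WT and 123 and 109 CPM after caerulein in acinar cells and 36.9 and 32 CPM in WT and 75 and 62.7 CPM after caerulein in ductal cells (difference of -6.19 ± 0.23 SE on the log2 scale, adjusted p = 7.71e-13). Sdf2l1 had 29 and 18.4 CPM in WT and 113 and 78.7 CPM after caerulein in ductal cells, opposite to its fall in acinar cells (difference of -5.63 ± 0.20 SE on the log2 scale, adjusted p = 6.83e-13). Immediate early genes changed more upward in acinar cells in 18 of 22 cases, all 22 having a lower mean CPM after caerulein in ductal cells. The median acinar minus ductal difference was -1.81 for ER genes and 1.18 for immediate early genes. Ribosomal protein genes changed more downward in 83 of 96 cases and oxidative phosphorylation genes in 64 of 91. Their median differences were -1.05 and -0.92, beside the shift of 0.68 that plain totals gave over all genes.

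Ductal and progenitor genes changed more upward in acinar cells in 16 of 31 cases and more downward in 2. Krt19 rose in acinar cells to 921 and 1135 CPM, and ductal cells held 1126 and 911 CPM in WT and 889 and 1095 CPM after caerulein (difference of 3.31 ± 0.19 SE on the log2 scale, adjusted p = 2.95e-10). Cell cycle genes changed more downward in acinar cells in 8 of 36 cases and more upward in 1, the inhibitor Cdkn1a (difference of 3.43 ± 0.22 SE on the log2 scale, adjusted p = 1.13e-09). Members near 0 in WT cells of both types could enter this test only through the caerulein sums, among them ductal sums where they were high. The filter on low counts thus partly sets these numbers. Rrm2, a subunit of ribonucleotide reductase, had 0.169 and 1.67 CPM in WT and 72.2 and 48 CPM after caerulein in ductal cells and 6.52 and 2.45 CPM in WT and 4.92 and 7.85 CPM after caerulein in acinar cells (difference of -6.43 ± 1.22 SE on the log2 scale, adjusted p = 0.00056). Cenpm, a centromere gene, had 0.843 and 1.91 CPM in WT and 75.8 and 57.8 CPM after caerulein in ductal cells and 7.82 and 9.79 CPM in WT and 10.5 and 10.7 CPM after caerulein in acinar cells (difference of -6.05 ± 0.69 SE on the log2 scale, adjusted p = 1.84e-06). Lrg1 had 21.1 and 19.6 CPM in WT and 263 and 287 CPM after caerulein in ductal cells and 620 and 26.9 CPM in WT and 59.9 and 67.3 CPM after caerulein in acinar cells (difference of -6.38 ± 0.65 SE on the log2 scale, adjusted p = 4.98e-07). Ctgf, a matricellular protein gene, had 12.6 and 31 CPM in WT and 156 and 149 CPM after caerulein in ductal cells and 3.91 and 56.3 CPM in WT and 4.41 and 5.37 CPM after caerulein in acinar cells (difference of -6.06 ± 0.48 SE on the log2 scale, adjusted p = 1.69e-08). The acinar cells of the WT mice lay apart from each other for both genes. Among the called genes with at least 50 CPM in one group, Vtcn1, Macc1, Ppl and Epsti1 had some of the largest upward differences. All had 0 UMIs in WT acinar cells and 108 and 64, 23 and 10, 23 and 13, and 35 and 10 UMIs after caerulein, so that their estimates rest on the low acinar counts and bound nothing. In ductal cells Vtcn1 had 52.6 and 49.9 CPM in WT and 73.8 and 68.9 CPM after caerulein. The adjusted p of these genes was 0.000926, 0.00448, 0.0101 and 0.0134. The enzyme list had 2 of 14 upward and 2 downward calls here, near the 11.6% and 12.3% of all genes. Ductal UMIs of acinar genes were few: the granule gene Gp2 had 128 and 80.2 CPM in WT and 5.24 and 20.9 CPM after caerulein. In thinned WT cells Gp2 was found in 12.1% and 8.39% of ductal cells and 9.71% and 12.7% of macrophages. For the enzyme gene Pnliprp2 the shares were 18.3% and 14.5%, and 19.4% and 18.6%. How much of the ductal enzyme UMIs was library background was not tested.

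**Figure D4:**
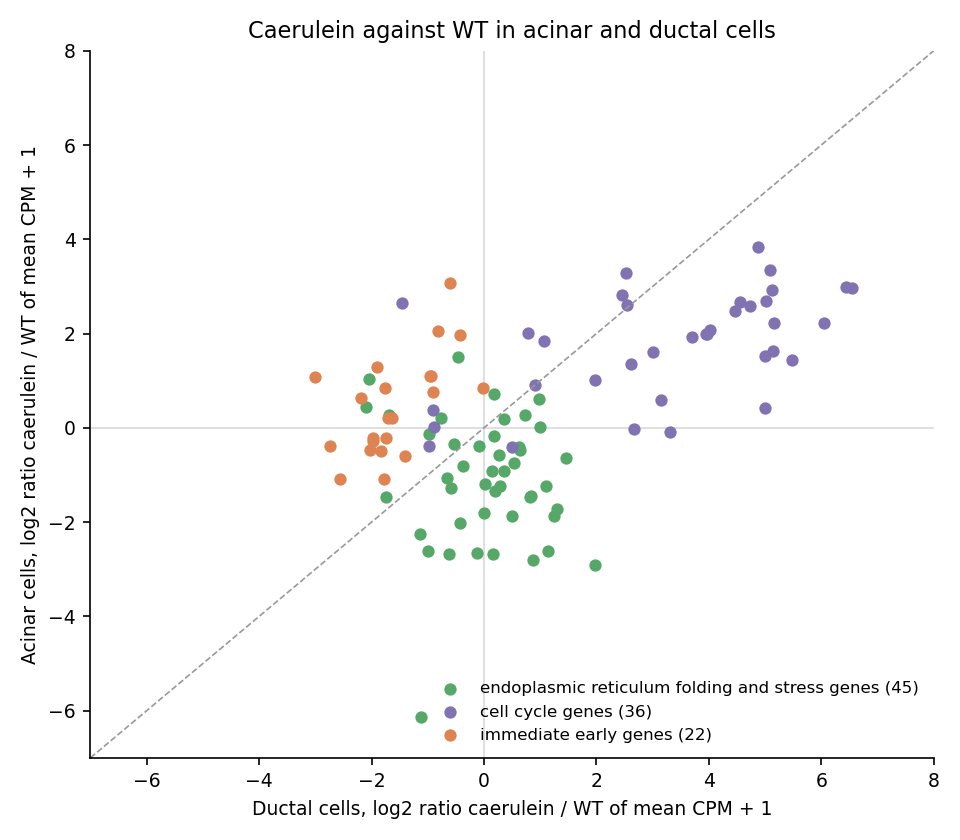
Change from WT to caerulein in ductal cells (horizontal) and acinar cells (vertical) for genes of 3 lists, each as the log2 ratio of mean CPM with 1 CPM added, with the dashed line where both are equal. Of the 45 ER genes in green, 35 have an acinar ratio of 0 or below, and all 22 immediate early genes in orange lie left of 0. Most cell cycle genes in purple lie right of 0 and below the line.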

How the data were processed

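Single-cell libraries of 2 WT, 2 caerulein and 3 i4F mice were analysed. The UMI counts were deposited as 1 table per condition with a column for each cell, which the authors made with Cell Ranger on mm10. Per the study's methods, cells with few genes or many mitochondrial reads were dropped and Seurat clusters were named by the authors. The methods name SoupX for background RNA, and whether the deposited counts were corrected by it is not given in the sources used here. The deposited cell annotation also gives each cell's mitochondrial and ribosomal percent, as computed by the authors. Counts were summed per mouse over cells whose cluster name starts with Acinar (and over ductal, macrophage, stellate and endothelial clusters), and the sums of all cells equalled the deposited totals. All 33864 genes listed in any of these tables entered the fits before the filter, and 25469 of them were listed in every table. A gene that the table of a condition did not list was entered as 0 there. edgeR 4.0.16 in R 4.3.3 (filterByExpr, TMM, quasi-likelihood test, Benjamini-Hochberg adjusted p under 0.05) tested groups in a fit of 7 mice and in a fit of 4 mice, which gave the gene results. The acinar and ductal responses were compared by an interaction term with the mouse as a block. Fits were also run on simulated counts as a check of the code. Apart from genes changed on purpose, all mice were drawn there from the WT means. The simulation thus lacks the differences among the i4F mice and cannot decide between the fits. DESeq2 1.42.0, other scalings, no filter, cells with at least 500 genes, cells of 500 to 3000 UMIs, removal of doublets (Scrublet in scanpy 1.11.5) and a replicate block were alternatives. Others left out 1 mouse, which was a WT mouse, a caerulein mouse or i4F mouse 3. Fold changes are log2, SE is the standard error and CPM is per 1000000 summed UMIs of a mouse. UMI counts at transcript ends do not compare levels between genes. Intervals cover counting error only, and each replicate is 1 mouse.

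Genes were named by rule: up to 4 called members per list and direction, all tested acinar transcription factors and Reg genes, up to 10 called genes per direction with no overlap between groups and at least 50 CPM in one, and up to 5 per direction of the interaction. The members and gene lists were chosen with earlier results of these data known. Only genes of the 4-mouse fit were ranked, and further genes are marked in the text as chosen after their values were seen. Some genes that this rule names are not reported here.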

Additional observations from a re-analysis of the deposited data

Results flagged for a closer look

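The response to caerulein differed between acinar and ductal cells by the test of the difference itself, edgeR's quasi-likelihood test of the interaction, for 1396 genes that changed more upward and 1480 that changed more downward in acinar cells. These counts hold with the mouse as a block, and a replicate block in its place left 85 and 187. Among called genes with at least 50 CPM in one group, some of the largest upward differences on the log2 scale were 8.60 for Vtcn1, 8.06 for Macc1, 7.61 for Ppl and 7.55 for Epsti1. All 4 genes had 0 UMIs in the acinar cells of both WT mice, so these estimates depend on the prior count and are no bound. Bounds against a floor of 3 UMIs over the WT group were taken on plain library totals. By these the genes were at least 10.9-fold (Vtcn1), 2.10-fold (Macc1), 2.29-fold (Ppl) and 2.86-fold (Epsti1) higher in caerulein acinar cells. In ductal cells Vtcn1 had 312 and 209 UMIs in WT and 183 and 56 after caerulein, and Macc1 had 378 and 178 UMIs in WT and 50 and 17 after caerulein. By the same limit, the largest downward differences were -6.43 for Rrm2, -6.38 for Lrg1, -6.19 for Fkbp11, -6.06 for Ctgf and -6.05 for Cenpm. Rrm2 and Cenpm went from 1 and 7 and from 5 and 8 UMIs in WT ductal cells to 179 and 39 and to 188 and 47 UMIs, so their differences rest on few WT UMIs. Lrg1 and Ctgf differed widely between the acinar cells of the 2 WT mice.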

How the results depend on the processing

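Counts of the fit of 7 mice went from 0 higher and 4 lower genes to 882 and 765 without the filter, 6 and 10 in cells of 500 genes or more, 216 and 378 over cells of matched depth, 319 and 588 with DESeq2, and 850 and 1180 in the 4 mice. Lower calls went to 2 with plain totals and to 0 with a library series term and after either removal of doublets. Fits of 7 mice without 1 mouse left out a WT mouse, a caerulein mouse or i4F mouse 3. Without 1 mouse the counts ranged from 0 to 929 higher and from 0 to 1222 lower, the highest values being those without i4F mouse 3. In the 4 mice, 850 higher and 1180 lower genes became 485 higher in cells of 500 genes or more, 528 and 702 over cells of matched depth, 2742 and 678 with plain totals, 1636 higher without the filter and 533 higher with DESeq2, and ranged from 349 to 758 and from 701 to 1024 without 1 mouse, lowest without caerulein mouse 1. The interaction gave 3719 and 705 with plain totals and ranged from 406 to 1306 and from 665 to 1444 without 1 mouse, again lowest without caerulein mouse 1. The cause of these shifts was not tested.

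Replicate numbers were not shown to pair the mice (correlation of same-numbered deviations -0.205 over 11134 genes). With the replicate block the fit of 7 mice called 778 higher and 1083 lower, the 4 mice 607 and 915, and the interaction 85 and 187 genes, and Reg3b turned to 0.13. The crossed pairing called 995 higher and 1253 lower, with Reg3b at 0.19.

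The log2 ratio of the acinar share, -0.41, was 0.49 outside immune clusters and 1.31 where only cells of 500 genes or more were counted. The log2 ratio of UMIs per cell, 1.92, became 0.77 there and ranged from 1.5 to 2.25 without 1 mouse, and that of genes per cell, 1.55, was 0.71 in these deeper cells, 0.25 after thinning and from 1.27 to 1.78 without 1 mouse. Of 130 named genes, those whose log2 fold change turned in the fit of 7 mice had these values. They were Ptf1a 0.16, Nr5a2 0.51, Gata6 0.36, Rrm2 0.49, Cenpm 0.27, Sox9 0.52 and Atf4 0.28 with plain totals, Nr5a2 0.11, Rrm2 0.091 and Sox9 0.13 without the filter, Ptf1a 0.072, Nr5a2 0.46, Gata6 0.24, Reg3g -0.099, Rrm2 0.86 and Sox9 1.12 in cells of 500 genes or more, Reg3b 3.11, Reg2 1.84, Reg3a 1.10 and Lrg1 1.14 over cells of matched depth, Reg3b 5.29, Xbp1 -0.28, Reg2 2.03, Reg3a 2.15, Rrm2 0.73, Lrg1 0.63 and Sox9 0.32 with a library series term, Nr5a2 0.087 and Sox9 0.14 without called doublets, Nr5a2 0.12 and Sox9 0.095 without the highest doublet scores and Nr5a2 0.030 and Sox9 0.080 over cells low in immune markers. Without 1 mouse the ranges were Reg3b from -1.59 to 5.33, Ptf1a from -1.34 to 0.38, Nr5a2 from -0.28 to 0.24, Gata6 from -0.50 to 0.21, Xbp1 from -0.23 to 0.81, Reg2 from -2.77 to 2.07, Reg3a from -4.57 to 2.20, Reg3g from -0.22 to 4.40, Rrm2 from -0.60 to 0.78, Lrg1 from -3.82 to 0.68, Sox9 from -0.34 to 0.36 and Atf4 from -0.52 to 0.036. None of these genes passed the test in the fit of 7 mice.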

Other observations

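Acinar cells of the 3 i4F mice, which enter above only in the fits of 7 mice, carried some of the same genes at other levels. Krt19 lay at 2109, 2109 and 517 CPM in i4F mice 1, 2 and 3, and Cldn4 at 437, 342 and 59.6 CPM, with i4F mouse 3 the lowest for both. Gp2 lay at 1289, 3039 and 8848 CPM and Derl3 at 13.6, 21.5 and 113 CPM, with i4F mouse 3 the highest. The trypsin-like gene 1810009J06Rik, at 5085 and 3559 CPM in the caerulein mice, lay at 24.6, 137 and 5.54 CPM, and Reg3b at 70514, 92496 and 92862 CPM, above every WT and caerulein mouse. No test was made of these values.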
